A study of Homo sapiens with 6 samples.

Results

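The genes of the cytosolic ribosomal proteins were compared between SKOV3 cells with a short hairpin RNA (shRNA) against CPT1A and control SKOV3 cells. They were chosen by symbol: RPL or RPS with a number and no more than a single letter A, L or X behind it, plus RPLP0, RPLP1, RPLP2 and RPSA, with pseudogenes excluded. This gave 83 of the 57905 genes in the deposited table, 49 of the large and 34 of the small ribosomal subunit. SKOV3 is an established human ovarian cancer cell line. There were 3 libraries of cells labelled CPT1Ash and 3 control libraries labelled WT in normal culture, all called biological replicates. No control hairpin is named in the labels, separate introductions of the shRNA per library are not stated, and the tag sh2 on the deposited shRNA columns is unexplained. An effect of CPT1A and an effect of carrying a hairpin cannot be told apart, and p-values measure spread between libraries.

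Cytosolic ribosomes are built in the nucleolus from ribosomal RNA and proteins that are each encoded by their own gene, and the proteins are made in matched amounts. Ribosomal protein mRNAs are among the most abundant mRNAs of a growing cell, and most begin with a C followed by an unbroken stretch of pyrimidines, the terminal oligopyrimidine (TOP) motif. Through this motif the kinase complex mTORC1 and the RNA-binding protein LARP1 control how many of these mRNAs are translated and how stable they are.

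The libraries held 15740143 to 18831831 counts in the shRNA group and 18287159 to 22271565 counts in the control group. CPT1A, which encodes the carnitine palmitoyltransferase of the outer mitochondrial membrane, had 2.16, 2.00 and 1.96 FPKM (counts scaled to exonic length and library size) in the shRNA libraries, against 6.70, 8.06 and 8 FPKM in the control libraries. The groups did not overlap; the log2 change was -1.97 ± 0.088 (SE; edgeR adjusted p = 3.3e-06), and the exact two-sided permutation p was 0.1, the lowest possible with 3 libraries a group. Control replicate 2 stood apart. On the first principal component of log2 CPM (counts scaled to library size), with 61.2% of the variance, the shRNA libraries lay between -32.9 and -26.5, control replicate 2 at 17.7 and the other controls at 36.1 and 34.6. Of 10 epithelial ovarian cancer markers 8 were expressed in at least 3 libraries, with summed levels of 1156 to 1321 FPKM in shRNA and 1668 to 2051 FPKM in control libraries; the low ones were WT1 and MUC16, at 0.01 to 1.24 FPKM. The 6 fibroblast markers summed to 0.32 to 0.59 FPKM in shRNA and 1.96 to 2.09 FPKM in control libraries, the 4 endothelial markers to 0.43 to 0.65 FPKM in shRNA and 0.17 to 0.24 FPKM in control libraries, and the 6 leukocyte markers to 0.70 to 0.92 FPKM in shRNA and 0.94 to 1.41 FPKM in control libraries. The groups did not overlap in any of these sums. None of these 16 markers reached the expression minimum, and CD3E was at 0 in all libraries. With edgeR's filterByExpr in place of that minimum, 3 of 4 fibroblast markers were called lower and 1 of 1 endothelial marker higher, against 12.4% lower and 12.4% higher of all genes tested there. The part of these low levels in the ribosomal protein result was not tested.

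The sequence at the start of the genes shows the shared feature of this family. RefSeq (GRCh38.p14) gave a start for 64 of the 83 genes, with 79 entries in all because some genes have several annotated starts. Each line below holds 30 bases, 10 before the annotated start and 20 from the start base onwards, so that the 11th base is the start. Capitals mark the longest unbroken run of C and T in the window. The first set holds the tested genes with the lowest log2 changes among those matched in RefSeq, down to RPL39. For RPL10 and RPL34, which have several entries, the entry with the longest run is shown; the longest runs of the others were 4 and 5 bases for RPL10 and 7 for RPL34.
RPL10 (chrX:154398367-154398396, plus strand): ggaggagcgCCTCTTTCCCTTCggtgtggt
RPL34 (chr4:108620566-108620595, plus strand): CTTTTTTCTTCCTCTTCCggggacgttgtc
RPL31 (chr2:101002279-101002308, plus strand): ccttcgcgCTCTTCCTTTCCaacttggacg
RPS27 (chr1:153990752-153990781, plus strand): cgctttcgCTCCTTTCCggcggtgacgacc
RPLP2 (chr11:809957-809986, plus strand): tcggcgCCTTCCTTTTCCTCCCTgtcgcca
RPS3A (chr4:151099618-151099647, plus strand): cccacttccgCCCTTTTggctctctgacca
RPL41 (chr12:56116623-56116652, plus strand): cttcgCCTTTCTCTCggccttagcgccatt
RPL39 (chrX:119791611-119791640, minus strand): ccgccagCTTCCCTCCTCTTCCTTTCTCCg
RPS28 (chr19:8321486-8321515, plus strand): gaagcacgtgaCTCCTCTCCgccagaccgc
RPS27L (chr15:63157458-63157487, minus strand): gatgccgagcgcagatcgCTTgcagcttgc

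RPL34, RPL39 and RPLP2 carried runs of 18, 22 and 17 pyrimidines. RPS3A had a run of 7, and RPS27L, a paralog of RPS27 known as a p53-induced gene, had none longer than 3 at its annotated start. The second set comes from the 7 tested genes with the highest log2 changes among those matched in RefSeq, none of which was called.
RPL17 (chr18:49492446-49492475, minus strand): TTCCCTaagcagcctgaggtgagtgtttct
RPL4 (chr15:66504836-66504865, minus strand): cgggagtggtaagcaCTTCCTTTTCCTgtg
RPL36A (chrX:101391001-101391030, plus strand): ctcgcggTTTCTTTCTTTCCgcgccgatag
RPS26 (chr12:56041908-56041937, plus strand): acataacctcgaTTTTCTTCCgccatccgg
RPL14 (chr3:40457329-40457358, plus strand): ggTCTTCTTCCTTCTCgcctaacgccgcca
RPLP0 (chr12:120201092-120201121, minus strand): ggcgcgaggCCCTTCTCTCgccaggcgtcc
RPSA (chr3:39406710-39406739, plus strand): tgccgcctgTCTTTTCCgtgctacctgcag

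In this set RPL14 had 14, RPL36A 13, RPL4 12, RPLP0 10, RPS26 9, RPSA 8 and RPL17 6 pyrimidines in a row, and the run of RPL17 ended before the start base. Over all 79 entries of ribosomal protein genes the longest run had a median of 10 bases, against 4 over the 35116 RefSeq entries of all genes. A run of at least 8 was found in 70.9% of the ribosomal protein entries and in 12.7% of all entries. The start base was C in 51 of the 79 ribosomal protein entries (64.6%), against 14.7% of all entries; among the 54 genes with a single entry it was C in 43 (79.6%). Pyrimidine strings of 5 bases, which can overlap each other, were searched in the same windows on both strands. The string CTTTC was on the sense strand of 41.8% and the antisense strand of 2.53% of the ribosomal protein entries, against 4.26% and 3.17% of all entries. For CTTCC the shares were 32.9% sense and 2.53% antisense in ribosomal protein entries, against 6.97% and 6.71% in all entries. For TCTTC they were 17.7% sense and 1.27% antisense, against 3.87% and 3.60%. For CCTTT they were 35.4% sense and 1.27% antisense, against 3.72% and 2.75%. At least 1 of these 4 strings was on the sense strand of 63.3% of the ribosomal protein entries and of 14.9% of all entries.

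The length of the longest run in the window was alike in genes that fell and in the others. Of the 53 tested genes with a single RefSeq start, 35 were called lower in the shRNA libraries. The median run was 11 bases in those called and 11 bases in the others. Nearly all of the others also had negative log2 changes. Pearson's r between run length and log2 change was -0.005 across these 53 genes, which share libraries. The run was the longest anywhere in the window, which includes bases before the annotated start. It need not begin at the start base, and in RPL14 it began before that base and in RPL4 after it. Its length need not be that of the TOP motif. Whether the length of that motif goes with the log2 change was not tested. An annotated start need not be the start used in these cells, which RNA counts per gene do not show.

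Most ribosomal protein transcripts were lower in the shRNA libraries, by small amounts. Of the 83 genes, 79 (47 large-subunit, 32 small-subunit) had 1 FPKM or more in 3 or more libraries and were tested among 12784 genes. In edgeR's quasi-likelihood test with Benjamini-Hochberg adjustment over all genes tested, 52 of the 79 (65.8%) fell at an adjusted p under 0.05, against 13.7% of all tested genes. None passed as higher, against 13.8% of all tested genes; none was higher at an unadjusted p under 0.05 either, and DESeq2 called 52 lower and 0 higher, against 14.4% lower and 15.2% higher of all tested genes. With limma on quantile-normalized FPKM 18 of the 79 were lower, against 12.2% of all tested genes, and 2, RPL4 and RPLP0, were higher, against 14% of all tested genes. On the scaled CPM the highest shRNA library was under the lowest control library for 61 of the 79 (77.2%), against 20.4% of all tested genes, and the groups overlapped for the other 18.

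The median log2 change of the 79 was -0.38, a 1.31-fold decrease, with quartiles at -0.46 and -0.31, against a median of -0.013 over all tested genes. In the called genes the decrease ran from 1.24-fold to 1.78-fold. A decrease of more than 1.5-fold was reached by 6 genes and one of more than 2-fold by 0. With the scaling used, 78 of the 79 changes were negative. RPL4, RPL39L and RPL36A, whose changes were near 0, were positive in several other analyses, among them scaling by total counts alone. In bulk RNA, fewer cells of a type and less RNA per cell cannot be told apart. The counts give relative levels, so they do not show whether the absolute amount of these transcripts per cell differed.

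**Figure D1:**
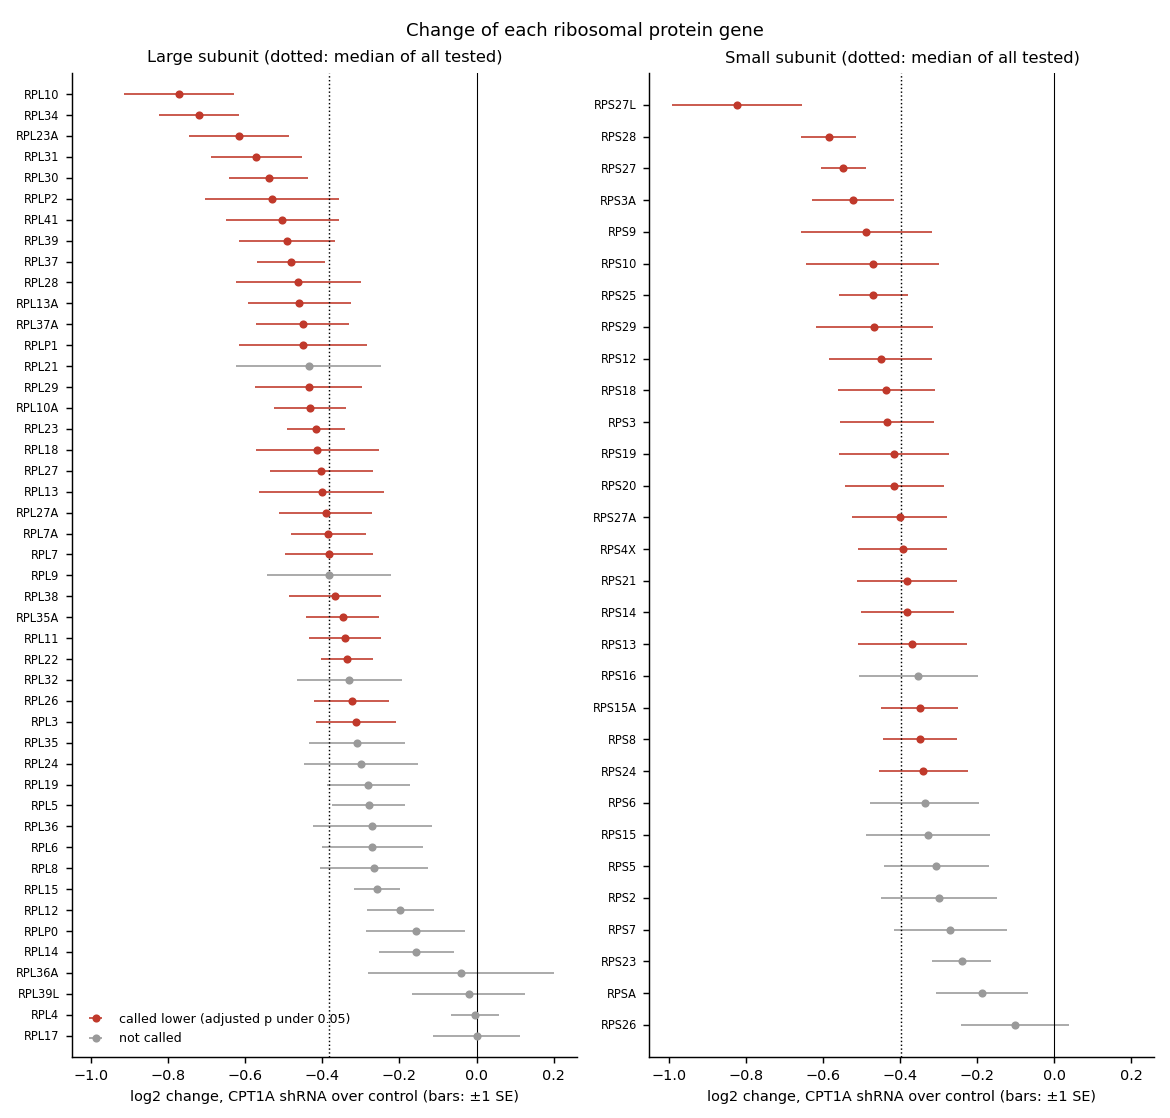
Log2 change (CPT1A shRNA over control, ± 1 SE, 3 libraries per group) of 46 large-subunit and 30 small-subunit genes, sorted within each panel; red points were called lower by edgeR, grey points were not, and dotted lines are medians of all tested genes of the subunit. Most points lie in a narrow band around the medians of -0.38 and -0.40, with RPS27L, RPL10 and RPL34 farthest to the left and RPL17, RPL4, RPL39L and RPL36A near 0.

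Both subunits took part. Of the large-subunit genes 29 of 47 (61.7%) fell, with a median log2 change of -0.38. Of the small-subunit genes 23 of 32 (71.9%) fell, with a median of -0.40. The small-subunit genes made up 39.5%, 39.5% and 39.9% of all ribosomal protein counts in the shRNA libraries, against 40.6%, 40.1% and 40.6% in the control libraries. Each shRNA share lay below each control share, by a small margin.

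Summed over all 83 genes, ribosomal protein transcripts took 4.35%, 4.39% and 4.57% of the counts in the shRNA libraries, against 5.70%, 4.75% and 5.72% in the control libraries. The means were 4.44 ± 0.12% and 5.39 ± 0.55% (SD, n = 3 each). The groups did not overlap, but control replicate 2 lay nearer to the shRNA libraries than to the other controls. It had the lowest control value for 75 of the 79 tested genes, control replicate 3 for the other 4. The median log2 CPM of the 79 genes, relative to the control mean, was -0.43, -0.40 and -0.31 in the shRNA libraries and 0.10, -0.22 and 0.12 in the control libraries. Against control replicate 2 alone, shRNA replicates 1, 2 and 3 were still lower for 74, 70 and 61 of the 79 genes.

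The spread between libraries of a group was smaller with the shRNA. The median SD of log2 CPM over the 79 genes was 0.055 in the shRNA group and 0.20 in the control group. Over all tested genes it was 0.14 in the shRNA group and 0.20 in the control group. The number of genes called depended on single libraries. Without control replicate 2, the number of ribosomal protein genes called lower was 73 (19.6% of all tested genes were), and without control replicate 1 it was 12 (7.15%). Without shRNA replicate 1 it was 26 (10.8%), and without shRNA replicate 2 it was 16 (7.69%). The median log2 change stayed between -0.49 and -0.33 when any single library was left out. In each of the 20 alternative analyses run 9 genes were called lower, among them RPL10, RPL23A, RPL30, RPL31, RPL34, RPL37 and RPS27L. No such share of all tested genes stands beside this count, which is a description only.

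**Figure D2:**
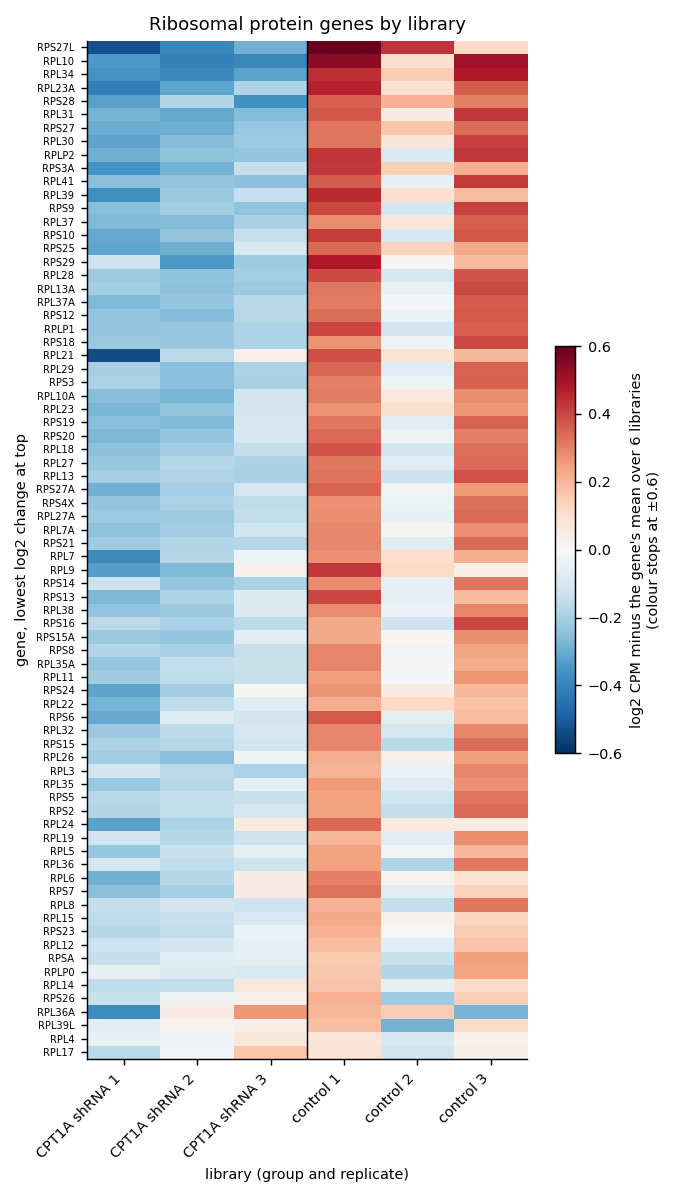
Log2 CPM of 76 tested ribosomal protein genes (rows) in each library (columns, 3 CPT1A shRNA then 3 control) relative to the gene's mean over the 6 libraries, with genes of the lowest log2 change at the top and colours that stop at 0.6. The shRNA columns are low and control replicates 1 and 3 high for most genes, while control replicate 2 lies between them, with a median of -0.22 relative to the control mean.

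The tested ribosomal protein genes were far more abundant than other genes, with a median level of 171 FPKM against 6.43 FPKM over all tested genes, so they were also set beside genes of similar level. Among the 56 ribosomal protein genes with a mean of at least 100 FPKM 66.1% were called lower, with a median log2 change of -0.38. Among the 376 other genes at that level 33.8% were called lower and 5.05% higher, with a median of -0.22. The exonic length of the tested ribosomal protein genes had a median of 2903 bases, against 4235 bases over all tested genes. With a trend of CPM on exonic length removed from each library, 36 of the 79 were called lower, against 13.5% of all tested genes, with a median log2 change of -0.29. Across the 79 genes the log2 change had a Pearson's r of 0.016 with log2 exonic length, 0.17 with log2 mean FPKM and -0.12 with the GC content of 78 genes, as a description of genes that share libraries.

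**Figure D3:**
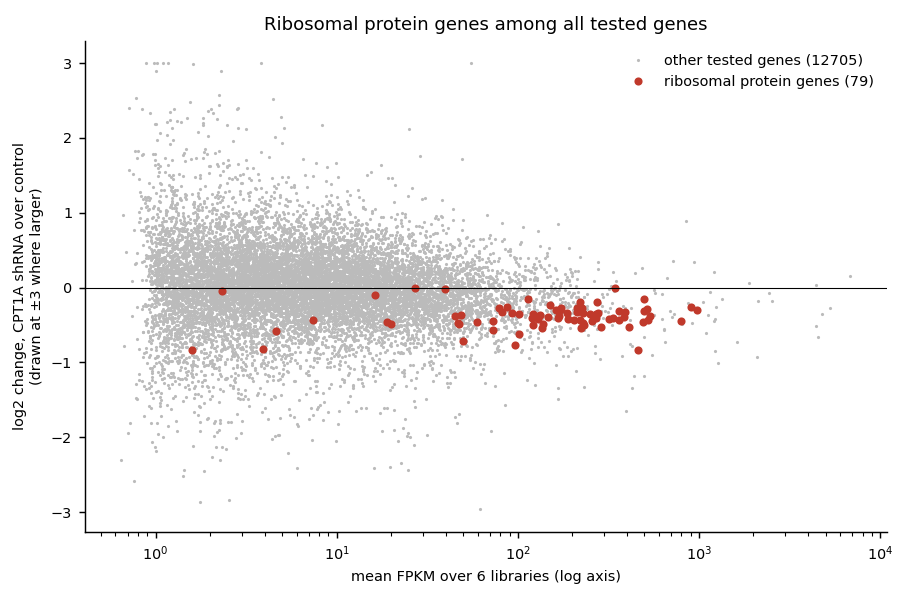
Log2 change (CPT1A shRNA over control) against mean FPKM over the 6 libraries on a log axis, for the 12784 tested genes, with the ribosomal protein genes in colour. Most ribosomal protein genes sit above 100 FPKM and below 0, in a part of the plot where the median of the other 376 genes is -0.22.

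RPL10 and RPL34 were among the genes with the largest decreases. RPL10 (ENSG00000147403), which joins the large subunit in a late step of its maturation and lies next to the sites that hold tRNA, had 75.4, 72.1 and 72.5 FPKM in shRNA libraries, against 130, 99.9 and 127 FPKM in control libraries. Its log2 change was -0.77 ± 0.14 (SE; edgeR adjusted p = 0.000645), with no overlap of the groups. RPL34, a large-subunit protein, had 38.7, 37.9 and 39.4 FPKM in shRNA libraries, against 62.9, 54.0 and 64.6 FPKM in control libraries. The groups were well apart, at -0.72 ± 0.10 (edgeR adjusted p = 0.000652). In the authors' table, whose genome build no source used here gives, RPL10 spans positions 153618315 to 153637504 of chromosome X and RPL34 positions 109541722 to 109551568 of chromosome 4, both on the plus strand.

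Among proteins around the tunnel through which the new polypeptide leaves the ribosome, some fell and others did not pass the test. RPL23A, a docking site at the tunnel exit, had 76.4, 81.6 and 88.7 FPKM in shRNA libraries, against 131, 106 and 122 FPKM in control libraries, a log2 change of -0.62 ± 0.13 (edgeR adjusted p = 0.0023). RPL31, beside it, had 61.1, 59.8 and 61.5 FPKM in shRNA libraries, against 89.8, 74.8 and 92.6 FPKM in control libraries, a log2 change of -0.57 ± 0.12 (edgeR adjusted p = 0.00271). Both fell without overlap of the groups. RPL4, which lines the narrowest part of the tunnel, had 342, 347 and 369 FPKM in shRNA libraries, against 349, 324 and 336 FPKM in control libraries. RPL17, near the exit, had 24.9, 27.4 and 30.9 FPKM in shRNA libraries, against 27.6, 24.99 and 26.6 FPKM in control libraries. The groups overlapped for both, with log2 changes of -0.0037 ± 0.062 for RPL4 and 0.000062 ± 0.11 for RPL17 (edgeR adjusted p = 0.981 and 1.00), whose signs varied between analyses. The difference between these genes and RPL23A or RPL31 was not tested.

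The acidic stalk recruits the translation factors to the large subunit, with RPLP0 as its base and RPLP1 and RPLP2 as its arms. RPLP2 had 237, 244 and 244 FPKM in shRNA libraries, against 365, 266 and 363 FPKM in control libraries. RPLP1 had 221, 220 and 226 FPKM in shRNA libraries, against 321, 234 and 310 FPKM in control libraries. Both fell, by 0.53 ± 0.17 and 0.45 ± 0.17 on the log2 scale (edgeR adjusted p = 0.00993 and 0.02), although control replicate 2 lay only a little above the shRNA libraries. Without control replicate 1 neither passed (edgeR adjusted p = 0.0704 for RPLP2 and 0.123 for RPLP1), and RPLP1 did not pass without shRNA replicate 1 or 2 either (0.054 and 0.0692). RPLP0, often used as a reference transcript, had 494, 481 and 476 FPKM in shRNA libraries, against 534, 441 and 561 FPKM in control libraries. Here control replicate 2 was the lowest of all 6 libraries and the gene did not pass (log2 change -0.16 ± 0.13, edgeR adjusted p = 0.319; positive with quantile normalization). Without control replicate 2 RPLP0 was called lower (edgeR adjusted p = 0.0147).

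Small-subunit proteins where the mRNA enters and leaves also gave mixed results. RPS28, at the mRNA exit, had 3.74, 4.14 and 3.61 FPKM in shRNA libraries, against 5.65, 5.32 and 5.41 FPKM in control libraries, and fell by 0.58 ± 0.071 on the log2 scale (edgeR adjusted p = 0.0197), with no overlap; the call was lost without any 1 of the shRNA libraries or without control replicate 1 (edgeR adjusted p between 0.059 and 0.0858). RPS26, also at the mRNA exit, had 15.3, 16.4 and 16.9 FPKM in shRNA libraries, against 18.2, 14.1 and 17.3 FPKM in control libraries, which overlapped (log2 change -0.10 ± 0.14, edgeR adjusted p = 0.658; positive once the length trend was removed). RPS2, at the mRNA entry and with the highest mean FPKM of the family as counted without pseudogenes, had 885, 898 and 923 FPKM in shRNA libraries, against 1105, 880 and 1179 FPKM in control libraries. In FPKM control replicate 2 was the lowest of all 6 libraries, an order that can differ on the scaled CPM. The log2 change of -0.30 ± 0.15 did not pass (edgeR adjusted p = 0.0806, and 0.00138 without control replicate 2). RPS3, beside RPS2, averaged 194 ± 4.6 FPKM in shRNA and 248 ± 28.7 FPKM in control libraries (SD, n = 3 each) and fell by 0.43 ± 0.12 on the log2 scale (edgeR adjusted p = 0.0119; 0.0643 without shRNA replicate 2 and 0.0705 without control replicate 1). RPS3 was picked for its position after its values were seen.

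Other proteins with well-known roles moved within the same range. RPS27, a zinc-binding protein of the small subunit, had 184, 183 and 191 FPKM in shRNA libraries, against 263, 247 and 265 FPKM in control libraries. The groups were far apart and the SE was small (log2 change -0.55 ± 0.059, edgeR adjusted p = 0.00186). RPS3A, of the small subunit, averaged 346 ± 25.6 FPKM in shRNA and 473 ± 41.8 FPKM in control libraries (SD, n = 3 each; log2 change -0.52 ± 0.11, edgeR adjusted p = 0.00349). RPL30, an RNA-binding protein of the large subunit, averaged 114 ± 3.4 FPKM in shRNA and 158 ± 14.6 FPKM in control libraries (-0.54 ± 0.10, edgeR adjusted p = 0.00287). RPS12, RPL7A and RPS18, with the highest mean FPKM after RPS2 and RPL8, fell by 0.45, 0.38 and 0.44 on the log2 scale (edgeR adjusted p = 0.0126, 0.0159 and 0.0127). Without control replicate 1 these 3 calls were lost (edgeR adjusted p = 0.0782, 0.0915 and 0.0663), as they were without shRNA replicate 2 (0.0636, 0.0848 and 0.0603) and, for RPL7A, without shRNA replicate 1 (0.0603). RPL8, next to the peptidyl transferase centre, averaged 839 ± 8.5 FPKM in shRNA and 958 ± 131 FPKM in control libraries and did not pass (log2 change -0.27 ± 0.14, edgeR adjusted p = 0.107; 0.00259 without control replicate 2).

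RPL5 and RPL11, picked after their values were seen, bind the smallest ribosomal RNA together and, outside the ribosome, the p53 regulator MDM2. RPL11 averaged 252 ± 5.9 FPKM in shRNA and 303 ± 24.5 FPKM in control libraries (SD, n = 3 each), and fell (log2 change -0.34 ± 0.093, edgeR adjusted p = 0.029), a call kept when a library was left out only without control replicate 2 (edgeR adjusted p otherwise between 0.0683 and 0.136). RPL5 averaged 160 ± 9.1 FPKM in shRNA and 185 ± 13.0 FPKM in control libraries, without overlap, and did not pass (-0.28 ± 0.095, edgeR adjusted p = 0.0661; 0.0076 without control replicate 2). RPSA, also known as a laminin receptor precursor, had 204, 214 and 215 FPKM in shRNA libraries, against 235, 200 and 249 FPKM in control libraries. Its groups overlapped (log2 change -0.19 ± 0.12, edgeR adjusted p = 0.23; 0.016 without control replicate 2; positive with quantile normalization), as did those of RPL14, with 105, 105 and 121 FPKM in shRNA libraries against 123, 111 and 118 FPKM in control libraries (-0.16 ± 0.097, edgeR adjusted p = 0.308).

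**Figure D4:**
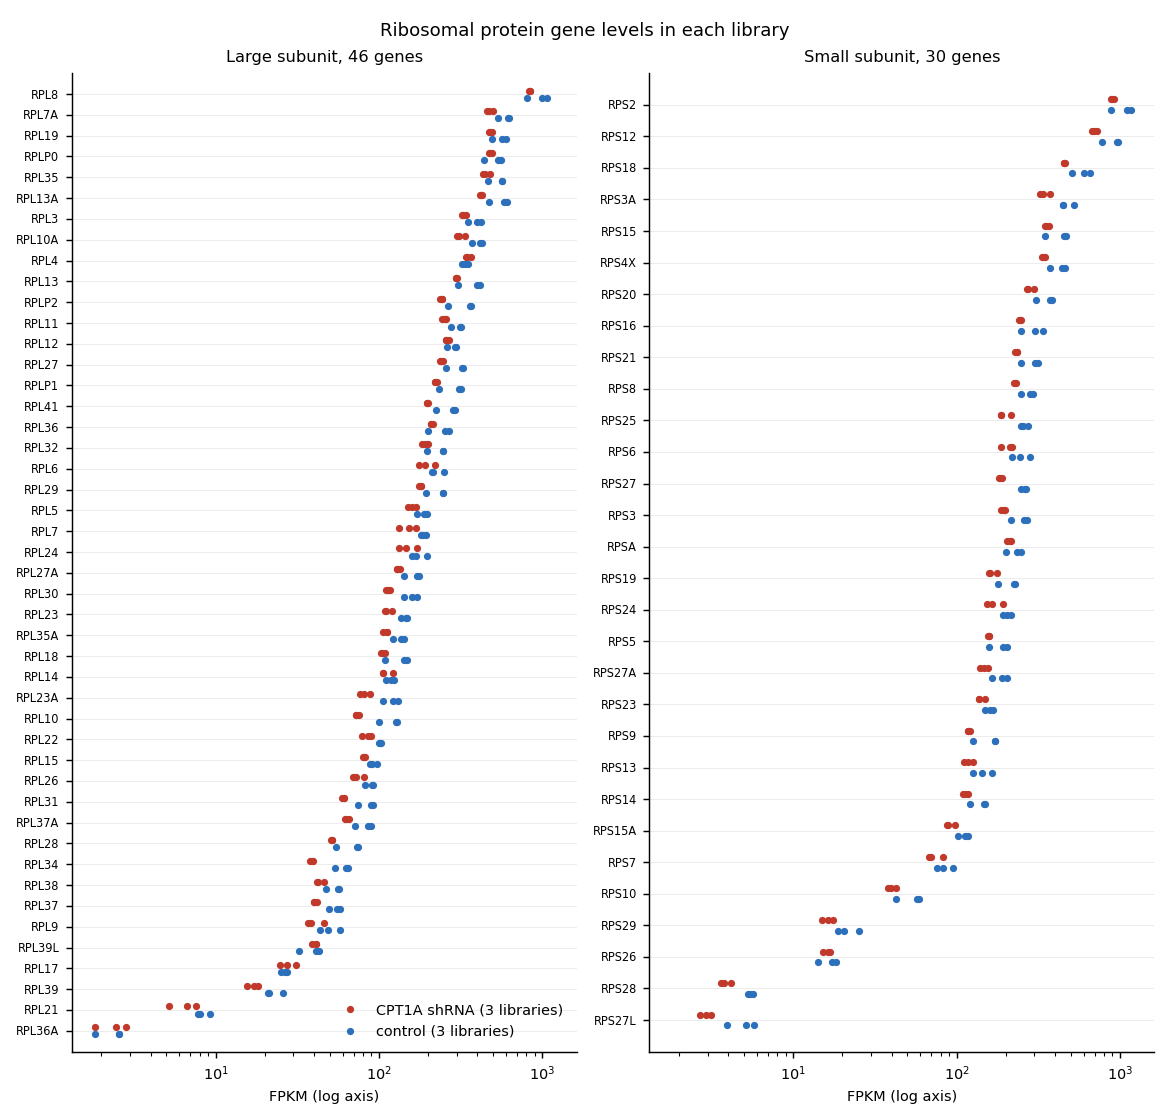
FPKM on a log axis of 76 tested ribosomal protein genes in each of the 6 libraries, large subunit on the left and small subunit on the right, with CPT1A shRNA points above control points for each gene. Levels span from 1.82 FPKM for RPL36A to 1179 FPKM for RPS2, and the control points are usually to the right of the shRNA points, with 1 control library close to them.

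Of the 27 tested genes that were not called, 14 had an edgeR adjusted p under 0.1, and 9 had each shRNA library under each control library. The matching shares over all uncalled genes do not stand beside these counts, which are a description only. RPS6, a target of the S6 kinases below mTORC1, averaged 207 ± 16.5 FPKM in shRNA and 248 ± 31.4 FPKM in control libraries (SD, n = 3 each; log2 change -0.34 ± 0.14, edgeR adjusted p = 0.0542, and 0.00398 without control replicate 2; picked for its role after its values were seen). The genes nearest to 0 were RPL17, RPL4, RPL39L, RPL36A, RPS26 and RPL14.

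Several members have a paralog that can take their place in the ribosome. RPL39L, a tunnel protein best known from male germ cells, had 38.8, 41.1 and 41.2 FPKM in shRNA libraries, against 43.1, 32.6 and 41.0 FPKM in control libraries. It did not pass (log2 change -0.021 ± 0.15, edgeR adjusted p = 0.929), and its sign varied between analyses. Its parent RPL39 fell, with 15.6, 17.2 and 18.2 FPKM in shRNA libraries, against 25.8, 21.1 and 21.4 FPKM in control libraries (log2 change -0.49 ± 0.13, edgeR adjusted p = 0.0193; 0.075 without shRNA replicate 1, 0.0751 without shRNA replicate 2 and 0.13 without control replicate 1). RPL39L thus made up 71.3%, 70.5% and 69.4% of the pair's summed FPKM in shRNA libraries, against 62.6%, 60.8% and 65.7% in control libraries, with no overlap. Reads assigned to RPL39 pseudogenes came to 443% of the counts of RPL39 itself, so the level of RPL39 and this share are uncertain.

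RPS27L had 2.69, 2.94 and 3.14 FPKM in shRNA libraries, against 5.72, 5.13 and 3.94 FPKM in control libraries, and fell by 0.82 ± 0.17 on the log2 scale (edgeR adjusted p = 0.00414). Its share of the summed FPKM with RPS27 was 1.45%, 1.58% and 1.62% in shRNA libraries, against 2.13%, 2.04% and 1.47% in control libraries, which overlapped. RPS27L lies opposite LACTB, whose counts came to 109% of those of RPS27L and whose log2 change was 0.095. No source states the strand of the reads, so reads from bases that both genes share cannot be told apart. The overlap was taken from start and end positions, and how far the exons of this pair overlap was not examined.

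Of the paralogs outside the naming rule, RPL7L1, known in ribosome assembly, was higher. It had 22.9, 25.4 and 26.4 FPKM in shRNA libraries, against 17.8, 20.1 and 18.3 FPKM in control libraries (log2 change 0.34 ± 0.072, edgeR adjusted p = 0.0287), and the groups did not overlap. RPL36AL was lower, with 87.4, 97.4 and 107 FPKM in shRNA libraries, against 168, 154 and 161 FPKM in control libraries (-0.80 ± 0.10, edgeR adjusted p = 0.000462). Its parent RPL36A, of the same protein family, had only 1.82, 2.44 and 2.81 FPKM in shRNA libraries, against 2.55, 2.56 and 1.82 FPKM in control libraries, and did not pass (-0.040 ± 0.24, edgeR adjusted p = 0.905; its sign varied between analyses). RPL26L1 averaged 49.97 ± 3.4 FPKM in shRNA and 41.7 ± 3.4 FPKM in control libraries (log2 change 0.19 ± 0.11). RPL22L1 averaged 7.38 ± 1.74 FPKM in shRNA and 6.93 ± 1.32 FPKM in control libraries (0.023 ± 0.25, of varying sign between analyses). Neither passed (edgeR adjusted p = 0.301 and 0.943). RPL7L1 lost its call without control replicate 1 and without shRNA replicate 2 or 3 (edgeR adjusted p = 0.13, 0.139 and 0.116).

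The 4 genes below the expression minimum were all paralogs or copies of other members. RPL10L, a testis paralog of RPL10, had 0 counts in all libraries. RPL3L, the form of RPL3 in heart and skeletal muscle, had 1, 3 and 3 counts in shRNA libraries, against 14, 16 and 12 counts in control libraries. RPS10L had 2, 0 and 5 counts in shRNA and 2, 8 and 0 counts in control libraries.

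FAU and GNB2L1, which encode cytosolic ribosome proteins under other names, gave the same direction without passing. FAU, which encodes a ubiquitin-like protein fused to RPS30, had 160, 165 and 163 FPKM in shRNA libraries, against 186, 153 and 200 FPKM in control libraries. GNB2L1, the scaffold protein RACK1, had 226, 224 and 221 FPKM in shRNA libraries, against 268, 224 and 283 FPKM in control libraries. In both, the FPKM of control replicate 2 was at or below a level seen in an shRNA library, an order that can differ on the scaled CPM. The log2 changes were -0.22 ± 0.14 for FAU and -0.28 ± 0.12 for GNB2L1 (edgeR adjusted p = 0.197 and 0.0775). Without control replicate 2 both were called lower (edgeR adjusted p = 0.0105 and 0.00241), and both turned positive with quantile normalization. RPS27A, a ubiquitin fusion and a member of the family, averaged 147 ± 9.2 FPKM in shRNA and 185 ± 19.6 FPKM in control libraries and fell (-0.40 ± 0.12, edgeR adjusted p = 0.0201; 0.076 without shRNA replicate 1, 0.0848 without shRNA replicate 2 and 0.123 without control replicate 1); it was picked for its structure after its values were seen.

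Processed pseudogenes of ribosomal proteins are numerous, and reads of a parent gene can be assigned to them. The table held 850 pseudogene rows, whose counts came to 4.25% of those of the 83 genes. This share was 4.22%, 4.23% and 4.23% in shRNA libraries, against 4.24%, 4.27% and 4.26% in control libraries. Of the 45 pseudogene rows tested 9 were lower and 2 higher, with a median log2 change of -0.31. Of all tested genes 13.7% were lower and 13.8% higher. The pseudogenes of RPL41, which encodes a very short basic protein, had 135% of the counts of RPL41. RPL41 fell by 0.50 ± 0.15 on the log2 scale (edgeR adjusted p = 0.00979; 0.0655 without control replicate 1). RPL41P1 fell by 0.37 and RPL39P3 by 0.45 (edgeR adjusted p = 0.0256 and 0.00926). RPL41P1 kept its call only without shRNA replicate 3 or control replicate 2 among the libraries left out (edgeR adjusted p otherwise between 0.0668 and 0.142), and RPL39P3 lost it without shRNA replicate 2 or control replicate 1 (0.0611 and 0.0561). Adding the pseudogene counts to their parents left 54 of the 79 genes called lower, including all 52, against 13.7% of all genes tested there.

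Overlapping genes touch other members. Of the 83 genes, 58 overlap another row of the table, 35 of them on the opposite strand. UBE2S, opposite RPL28, had 56.3% of its counts, LONP1, opposite RPL36, 60.4%, NDUFA7 (ENSG00000267855), opposite RPS28, 40.7%, and PTPN11, opposite RPL6, 20.7%. These percentages use all counts of each neighbour, not those of shared bases. Overlap was taken from start and end positions, and overlap of exons was not examined. None of these 4 neighbours passed the test, with log2 changes of -0.26, 0.10, 0.11 and 0.31. Introns of ribosomal protein genes often hold small nucleolar RNAs, but the 60 such rows within 29 members had 416 counts in all over the 6 libraries, and 46 were at 0.

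Other genes with known TOP mRNAs were partly lower too. The main counts of all lists of related genes stand beside the shares of all tested genes, 13.7% called lower and 13.8% called higher. Under total counts alone these shares were 10.7% lower and 17.3% higher, and with quantile normalization 12.2% and 14%. With length and GC trends removed they were 19.4% and 19.6%, and with RLE factors 13.5% and 13.9%. With the length trend alone removed 13.5% were lower. Of 16 tested translation factors and related genes 8 fell and 2 rose, with a median log2 change of -0.24 (5 fell and 2 rose with quantile normalization). EEF2, the factor that moves the ribosome along the mRNA, had 223, 196 and 179 FPKM in shRNA libraries, against 578, 551 and 660 FPKM in control libraries, a log2 change of -1.66 ± 0.13 (edgeR adjusted p = 3.1e-06). This was a larger change than in any ribosomal protein gene tested, with the groups far apart. NPM1, a nucleolar chaperone of ribosome assembly, averaged 127 ± 18.0 FPKM in shRNA and 229 ± 34.9 FPKM in control libraries (SD, n = 3 each), a log2 change of -0.92 ± 0.17 (edgeR adjusted p = 0.000377). HNRNPA1 and TPT1 also fell, by 0.59 and 0.43 on the log2 scale (edgeR adjusted p = 0.00192 and 0.00548; TPT1 turned positive with quantile normalization). EIF4B, a cofactor of the cap-binding helicase, and PABPC1, the cytoplasmic poly(A)-binding protein, rose by 0.38 and 0.41 on the log2 scale (edgeR adjusted p = 0.0148 and 0.0208). Both lost their call without shRNA replicate 2 or 3 or without control replicate 1 (edgeR adjusted p between 0.051 and 0.118).

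Small nucleolar RNA host genes, many of which also begin with pyrimidine runs, fell in 5 of 13 cases and rose in 0, with a median log2 change of -0.40. EPB41L4A-AS1 had 2.56, 2.56 and 2.70 FPKM in shRNA libraries, against 5.61, 4.05 and 5.39 FPKM in control libraries (log2 change -1.02 ± 0.17, edgeR adjusted p = 0.00143). SNHG5 had 9.33, 8.96 and 9.32 FPKM in shRNA libraries, against 17.1, 13.7 and 15.4 FPKM in control libraries (-0.81 ± 0.11, edgeR adjusted p = 0.00147). In both, no shRNA library reached a control library. SNHG15 and SNHG6 fell by 0.65 and 0.43 on the log2 scale (edgeR adjusted p = 0.0232 and 0.0237), and GAS5 fell by 0.40 (edgeR adjusted p = 0.0338). These 3 calls were lost without shRNA replicate 1 or 2 or without control replicate 1 (edgeR adjusted p between 0.0689 and 0.175), that of SNHG15 also without control replicate 3 (0.0531) and that of GAS5 without shRNA replicate 3 (0.0849) or under total counts alone (0.0677).

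For genes of small-subunit and large-subunit processing the shares called lay under those of all tested genes. Of 46 tested genes of small-subunit processing 5 fell (10.9%) and 2 rose (4.35%), with a median log2 change of 0.0083. Under total counts alone 3 fell and 5 rose, and with length and GC trends removed 7 fell and 6 rose. Of 54 genes of large-subunit processing 2 fell and 2 rose (3.70% each; median 0.027), and with length and GC trends removed 7 fell and 4 rose. GNL3L, a nucleolar GTPase, rose by 1.49 ± 0.17 and MDN1, a large ATPase of large-subunit maturation, by 0.87 ± 0.21 on the log2 scale (edgeR adjusted p = 9.18e-05 and 0.0016). NOC4L and GNL3 fell by 0.78 and 0.48 (edgeR adjusted p = 0.00252 and 0.0388); the call of GNL3 was kept only without shRNA replicate 3 or control replicate 3 among the libraries left out (edgeR adjusted p otherwise between 0.0766 and 0.135). In small-subunit processing the called genes with the smallest p were PDCD11 and HEATR1, which rose by 0.66 and 0.67 (edgeR adjusted p = 0.00123 and 0.00796), and DDX10 and RIOK1, which fell by 0.69 and 0.67 (edgeR adjusted p = 0.0124 and 0.0177). HEATR1 lost its call without shRNA replicate 2 (edgeR adjusted p = 0.0533), DDX10 without shRNA replicate 1 (0.0505) and RIOK1 without shRNA replicate 1 or control replicate 1 (0.0703 and 0.087). Of 14 tested proteins of box C/D and H/ACA ribonucleoproteins, which guide rRNA modification, 2 fell (14.3%, near the 13.7% of all tested genes) and 0 rose. NHP2L1 fell by 0.72 and NOLC1 by 0.66 (edgeR adjusted p = 0.000541 and 0.00262). In this list 2 fell and 1 rose under total counts alone or quantile normalization.

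RNA polymerases I and III transcribe ribosomal RNA. Of 33 tested genes of these enzymes and their factors 4 fell (12.1%) and 5 rose (15.2%), shares near those of all tested genes, with a median log2 change of -0.10. The largest subunits rose: POLR1A averaged 11.7 ± 0.4 FPKM in shRNA and 6.58 ± 0.67 FPKM in control libraries, and POLR3A averaged 6.89 ± 0.05 FPKM in shRNA and 3.80 ± 0.37 FPKM in control libraries (SD, n = 3 each; log2 changes 0.76 and 0.79, edgeR adjusted p = 0.000386 and 0.000699). POLR1B, the second subunit of polymerase I, rose by 0.77 (edgeR adjusted p = 0.000706), whereas its small subunit ZNRD1 fell by 0.66 (edgeR adjusted p = 0.0103; 0.055 without control replicate 1).

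Among regulators of TOP mRNAs and ribosome number 6 of 20 rose and 1 fell (7 rose and 4 fell with length and GC trends removed). MTOR had 11.1, 12.1 and 10.5 FPKM in shRNA libraries, against 5.19, 6.43 and 5.81 FPKM in control libraries (log2 change 0.88 ± 0.092, edgeR adjusted p = 0.000228). LARP1 had 40.2, 39.4 and 36.9 FPKM in shRNA libraries, against 22.1, 27.8 and 24.4 FPKM in control libraries (0.58 ± 0.085, edgeR adjusted p = 0.00168). In both, all shRNA libraries lay above all control libraries. The translation repressor EIF4EBP2 rose by 1.33 ± 0.12 and RPTOR, the mTORC1 scaffold, by 0.68 ± 0.079 on the log2 scale (edgeR adjusted p = 1.8e-05 and 0.000933). MYC, a transcription factor that drives ribosome production, was the gene that fell, with 36.2, 39.2 and 45.3 FPKM in shRNA libraries, against 52.4, 48.9 and 55.8 FPKM in control libraries (-0.45 ± 0.12, edgeR adjusted p = 0.0148). MYC lost its call without shRNA replicate 1 or 2 or control replicate 1 (edgeR adjusted p between 0.0656 and 0.0749). These are mRNA levels, and the activity of these regulators was not measured.

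Import factors and dedicated chaperones of ribosomal proteins rose in 4 of 13 cases and fell in 2. This balance varied with the scaling, as 0 fell and 4 rose under total counts alone, 1 fell and 4 rose with quantile normalization, 3 fell and 2 rose with the length trend removed, and 5 fell and 3 rose with length and GC trends removed. TNPO1 and IPO5, nuclear import receptors, rose by 0.76 and 0.47 on the log2 scale (edgeR adjusted p = 0.00252 and 0.0163), IPO9 by 0.37 (edgeR adjusted p = 0.0172), and PDCD2, a chaperone of RPS2, fell by 0.36 (edgeR adjusted p = 0.0277). IPO5, IPO9 and PDCD2 lost their calls without shRNA replicate 2 or 3 or control replicate 1 (edgeR adjusted p between 0.0515 and 0.151), PDCD2 also without shRNA replicate 1 (0.0705). Of 16 tested genes of ribosome rescue and quality control 3 rose and 1 fell (3 and 0 with RLE factors or total counts alone). The stress kinase EIF2AK4 and its activator GCN1L1, which senses stalled ribosomes, rose by 0.69 and 0.56 on the log2 scale (edgeR adjusted p = 0.00105 and 0.00226), USP10 rose by 0.49 (edgeR adjusted p = 0.00691), and TCF25 fell by 0.32 (edgeR adjusted p = 0.0486). USP10 was at an adjusted p of 0.0513 in edgeR without control replicate 1, and TCF25 kept its call only without control replicate 2 (edgeR adjusted p otherwise between 0.0579 and 0.192).

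**Figure D5:**
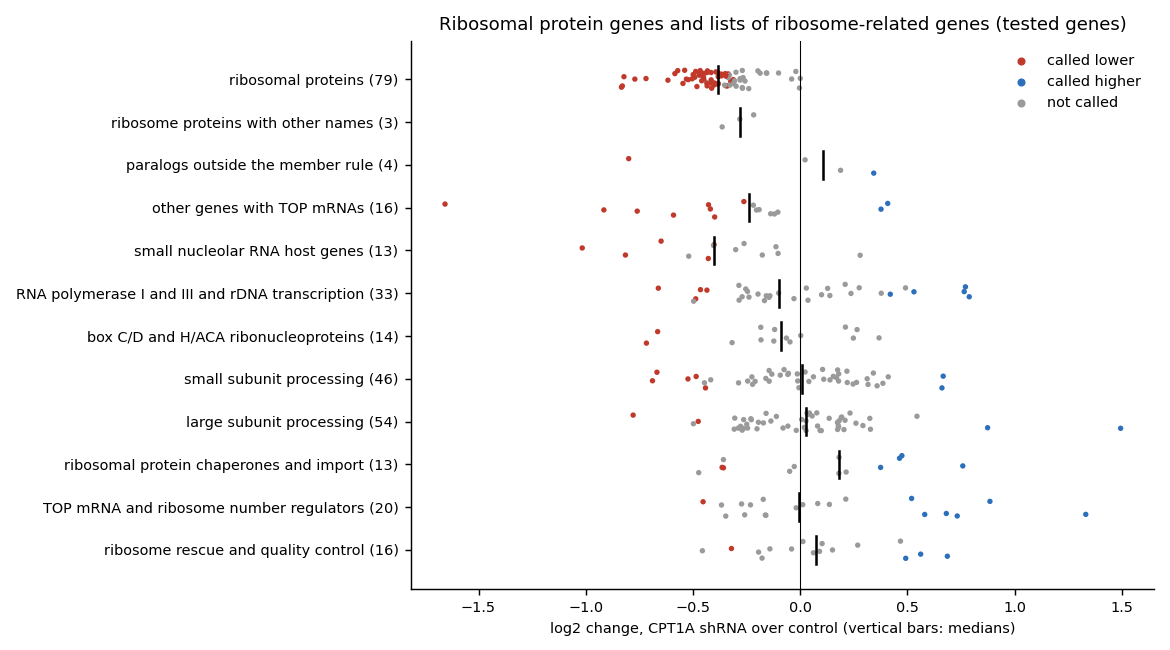
Log2 change (CPT1A shRNA over control) of each tested gene in the ribosomal protein family and in 11 lists of ribosome-related genes, coloured by the edgeR call, with vertical bars at the medians and numbers of genes in parentheses. The ribosomal protein points form a narrow cluster left of 0 with a median of -0.38, small nucleolar RNA host genes have a median of -0.40, and the processing, import and regulator lists lie on both sides of 0.

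Some epithelial markers fell. Of the 8 tested, 4 were called lower, against 13.7% of all tested genes and 33.8% of the 376 with a mean of at least 100 FPKM outside the ribosomal protein family. These were KRT19, KRT7, KRT8 and PAX8, lower by 1.35, 1.01, 0.76 and 0.60 on the log2 scale (edgeR adjusted p = 3.14e-05, 0.000145, 0.000421 and 0.0016). EPCAM, MSLN, KRT18 and ERBB2 did not pass, with log2 changes of -0.31, -0.33, -0.12 and 0.19 (edgeR adjusted p = 0.0734, 0.0761, 0.445 and 0.348). Their part in the ribosomal protein result was not tested.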

How the data were processed

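RNA was sequenced from 3 CPT1A shRNA and 3 control libraries of SKOV3 cells. Per the labels' protocols, total RNA was taken with TRIzol or a column kit, poly(A) selection or rRNA removal was used without saying which, and 13 PCR cycles followed random priming. The deposited table gives 57905 genes with raw counts and FPKM values. The deposited counts are whole reads per gene. The submitters' processing notes list DESeq2, HTSeq 0.6.1, HISAT2 2.0.1 and cutadapt 1.9.1, with no roles, and no strand setting. The authors' FPKM values are counts per exonic length and per summed counts of the library, a formula that gave 100% of the values within 0.0051. The notes name a mouse build, while the identifiers are human Ensembl ones, so the sources used here do not settle the build of the table's coordinates. How many reads per gene were lost to other copies of a sequence depends on the authors' counting, which the sources do not describe.

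The 12784 genes that reached 1 FPKM in 3 or more libraries were compared on their counts with edgeR 4.0.16 in R 4.3.3, with trimmed-mean (TMM) scaling, quasi-likelihood tests and Benjamini-Hochberg adjustment over all genes tested. Calls needed an adjusted p under 0.05. Log2 changes are fitted values, shRNA over control, and each SE is that of the group means' difference in log2 CPM (prior count 2). The procedure was tested on simulated data. Alternatives included other scalings, DESeq2 1.42.0, limma 3.58.1 on log2(FPKM + 1) and log2(FPKM + 0.1), other filters, trends of length and GC, pseudogene counts added and each library left out. A replicate block was tried but same-numbered libraries did not deviate together.

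Values are given for the 8 called members with the smallest adjusted p, the 8 with the lowest and the 6 with the highest log2 change, the 5 with the highest FPKM, the stalk genes and RPSA, members ending in L, members below the minimum, and up to 4 called genes per related list, those with the smallest p. Members given with expression values beyond this are marked as picked after their values were seen. Genes of related lists beyond the 4 (GAS5, EIF4B, PABPC1, MYC) and the parents RPL39, RPL41 and RPL36A were added in the same way. RPL37, RPL28, RPL36 and RPL6 are named outside these rules without such a mark. A few genes that these rules name are not reported here and are left out of the plots of single genes. The members and the lists were chosen with earlier results of these data known. Sequences are RefSeq's, on GRCh38.p14.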

Additional observations from a re-analysis of the deposited data

How the results depend on the processing

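The count of 52 ribosomal protein genes called lower changed by more than 1.5 times with limma, to 18 on quantile-normalized log2(FPKM + 1), 33 on log2(FPKM + 1) and 32 on log2(FPKM + 0.1), and to 26 with the replicate block and the length trend removed; of all tested genes 12.2%, 10.5%, 10.1% and 11.6% were called lower there. It ran from 12 to 73 with a library left out, against 7.15% and 19.6% of all tested genes. Quantile normalization also gave 2 genes called higher, RPL4 and RPLP0, and a median log2 change of -0.11. In the other alternatives that kept all libraries the count lay between 36 (length trend removed) and 59 (no filter), with 0 genes called higher and medians between -0.40 and -0.29. Of all tested genes 13.5% were called lower with the length trend removed and 6.97% of 29615 with no filter. That share was highest, at 19.4%, with length and GC trends removed. With a library left out 0 were called higher and the median lay between -0.49 and -0.33. The difference in the share of counts, -0.956 percentage points, ran from -1.28 to -0.79 with a library left out. CPT1A was called lower in all 20 alternatives, with log2 changes from -2.14 to -1.49. The causes of these movements were not tested.

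Same-numbered libraries did not deviate together (correlations of -0.069, 0.00749 and -0.251), so the numbers were not taken as pairs. With the replicate block alone 45 genes were called lower, against 12.5% of all tested genes, and the median was -0.38. No shRNA library correlated best with the control of its own number.

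Over 86 single genes and 20 alternatives 1486 of 1718 values kept their direction and side of the threshold, 167 lost a call, 20 gained one and 45 changed sign. RPL17 (main 0.000062) was negative without shRNA replicate 3 (-0.0899, the lowest with a library left out; highest 0.0754), without control replicate 2 (-0.058), with TMM factors from other genes (-0.0038), no filter (-0.0018), filterByExpr (-0.0082), the block (-0.0037) and pseudogene counts added (-0.0059). RPL4 (main -0.0037) was positive with RLE factors and DESeq2 (0.0003 each), total counts (0.0698), limma (0.40 quantile-normalized, adjusted p = 0.00456; 0.0683 and 0.0684 with pseudocounts of 1 and 0.1), and without 4 of the 6 libraries in turn (range -0.0512 to 0.0334). RPL39L (main -0.021) was positive with total counts (0.0553), limma (0.10 quantile-normalized, 0.0612 and 0.0628 with those pseudocounts), the length trend removed (0.17, and 0.18 with the block), length and GC trends removed (0.0831, an alternative chosen after seeing the data), and without 3 of the 6 libraries in turn (range -0.1516 to 0.0679). RPL36A (main -0.040) was positive with total counts (0.0293), limma with those pseudocounts (0.0175 and 0.0228), length and GC trends removed (0.010), and without 3 of the 6 libraries in turn (range -0.1933 to 0.1212). RPS26 was at 0.0767 with the length trend removed and 0.0784 with the block as well, and RPL8 at 0.0048 with length and GC trends removed. Quantile normalization turned RPLP0 (0.32, adjusted p = 0.00413), RPSA (0.0882), TPT1 (0.0707), GNB2L1 (0.0402) and FAU (0.0107) positive and RPL22L1 negative (-0.0115), which was also negative without shRNA replicate 3 or control replicate 3 (range with a library left out -0.1888 to 0.1538). Depth limits the low genes: RPL36A had at most 224 counts in any library.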
